A study of Mus musculus and Rattus norvegicus with 6 samples.

Results

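The comparison set 1 array of liver RNA from leptin-injected, leptin-deficient rats against 1 array from saline-injected wild-type (WT) rats. The arrays were chosen by their titles, which makes them 2 of the 6 arrays of the study, and no measured value entered the choice. The leptin-injected rats were homozygous for the Lepmkyo allele of the leptin gene and received recombinant murine leptin intraperitoneally, at a dose labelled as 1 microg/mg. The WT rats were control littermates and received saline by the same route. Rats of both groups had the F344/NSlc background, were 20 weeks old, were labelled male and gave liver samples 6 h after the injection. The groups therefore differ in genotype and in the substance injected, and these cannot be told apart here. A group of WT rats given leptin was not analysed here. The labels spell the mutant genotype in several ways, and the source field of the mutant rats names Lepob, the mouse allele. The descriptions and the design text give Lepmkyo, which is used here. Whether an array carried RNA of 1 rat or of a pool is not stated. A saline-injected Lepmkyo/Lepmkyo array also exists. It entered no count or ratio of this comparison, and its signals are given beside the others as context.

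Leptin is secreted by adipose tissue in proportion to its fat stores, acts mainly on the brain to restrain feeding and signals through the leptin receptor, JAK2 and STAT3. Animals that lack it overeat and become obese, with high insulin and a fatty liver. In the liver, insulin and dietary sugar raise fatty acid synthesis through the transcription factors SREBP1c and ChREBP, while fasting hormones raise gluconeogenesis, amino acid breakdown and fatty acid oxidation. The question put to the arrays is which differences from WT were present 6 h after leptin, before food intake and body weight would have changed, according to the stated design.

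The array signals are linear intensities. A signal floor of 96.5, the median of all values of both arrays, separated measured genes from dim ones. Each gene was represented by its brightest probe set and counted as measured where 1 or both arrays had a signal at or above the floor. Lower signals were raised to the floor before the log2 ratio of the leptin-injected mutant over WT was taken, so a fold against a signal under the floor is a lower bound, written "at least". With 1 array per group there is no replicate spread, no test and no p-value. "Higher" and "lower" compare 2 arrays. The only error that can be given is how far probe sets for 1 gene differ, 0.45 (SD of log2 ratios, pooled over 2399 genes), and it holds nothing of the variation between rats. The precision of each value is limited by there being 1 array a group, and any batch and the group cannot be told apart.

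The labelled sex of the rats was set against genes of the sex chromosomes. Xist, the RNA that coats the inactive X chromosome and is made in female cells, was above the floor on all 4 of its probe sets. Its signals were 2265 to 5572 in WT, 1143 to 3699 in the saline-injected mutant and 978 to 2796 in the leptin-injected mutant. The 3 Xist probe sets of the mouse arrays, also labelled male, gave 3.1 to 54.3, all under the mouse floor of 85.3. Probe sets annotated to Y-linked genes gave signal on the rat arrays too. Uty had 1600, 1173 and 1155 in WT, saline-injected mutant and leptin-injected mutant on 1 of its 2 probe sets, and Eif2s3y had 782.9, 1256 and 1218. Sry was under the floor, at 20.7, 13.3 and 7.4. Xist was 1.88-fold to 2.32-fold lower in the leptin-injected mutant than in WT. The Y-linked genes differed in direction, with Eif2s3y 1.56-fold higher and Uty 1.385-fold lower. Signals of both kinds thus stood on arrays labelled male, and their part in the results below was not tested. The genes for this check were chosen after the data had been seen.

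The leptin-injected mutant array differed from WT in named groups of metabolic genes. Genes of fatty acid and sugar metabolism, of serine synthesis and of the matrix were among the higher ones. Genes of amino acid breakdown and growth hormone responsive genes were among the lower ones. Of 9755 measured genes, 436 lay 2-fold or more from WT (4.47%), with 275 above it (2.82%) and 161 below it (1.65%). At 1.5-fold the shares were 10.3% above and 6.89% below. At least 4-fold were 31 of the higher and 18 of the lower genes, and the median log2 ratio over all measured genes was 0.06. A bound applied to 52 of the higher and 32 of the lower genes. For 63 of the higher genes a further probe set was measured. It had the same sign in 52, was at least 1.5-fold the same way in 28 and at least 1.5-fold the other way in 4. Among 40 such lower genes it had the same sign in 34, was at least 1.5-fold the same way in 22 and at least 1.5-fold the other way in 1. The log2 signals of the arrays correlated at r = 0.962 across 14426 probe sets above the floor on both, which are not independent replicates.

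**Figure D1:**
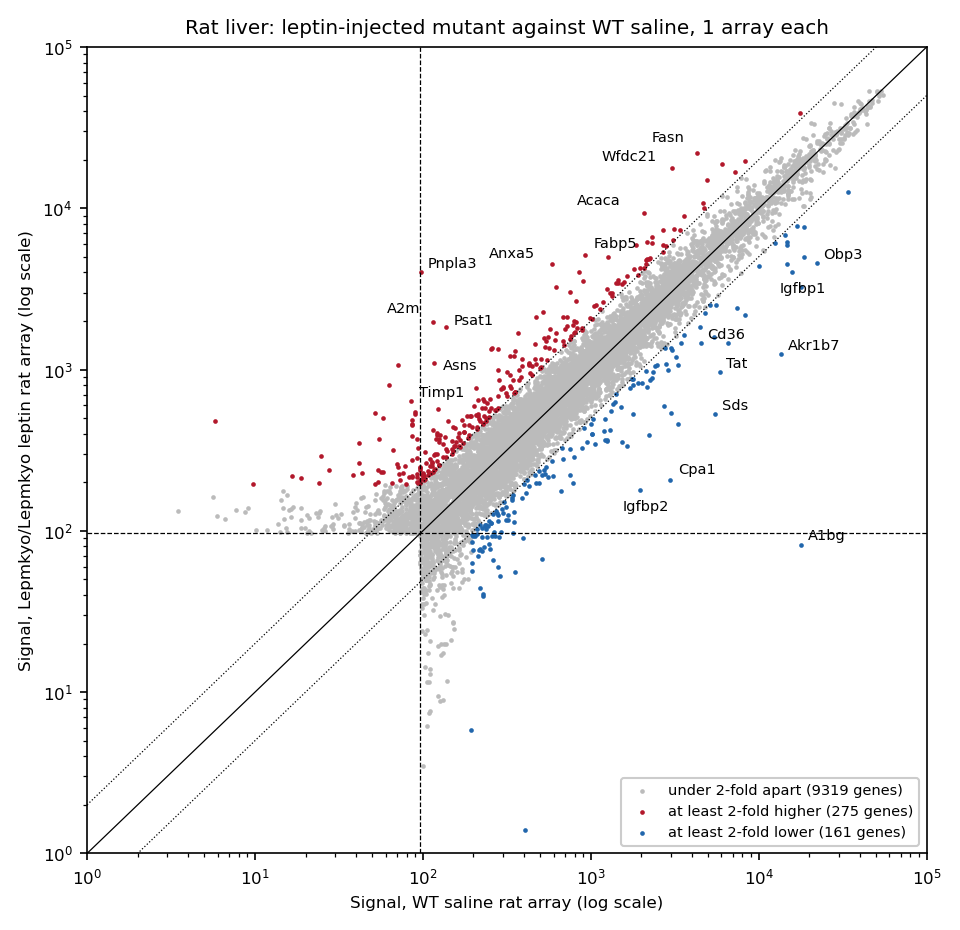
Signal of each of the 9755 measured genes on the WT saline array (x axis, log scale) and on the leptin-injected Lepmkyo/Lepmkyo array (y axis, log scale), with dotted lines at 2-fold and dashed lines at the floor of 96.5. The 275 higher genes lie above the band and the 161 lower genes below it, and A1bg and Pnpla3 have the largest ratios in either direction once signals under the floor are raised to it.

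Genes of fatty acid synthesis were among the higher ones. Of 25 measured genes of fatty acid and triglyceride synthesis, 9 were higher by 2-fold or more, 0 were lower by as much, and the median log2 ratio was 0.56. Pnpla3, a lipid droplet lipase and acyltransferase that insulin and SREBP1c induce, had the largest ratio of all genes that were higher. Its signal was 97.5 in WT, 4100 in the saline-injected mutant and 4029 in the leptin-injected mutant. The WT signal lay at the floor, the ratio to the leptin-injected mutant was 41.3-fold, and the other probe sets had log2 ratios of 1.85 and 4.02.

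Fasn, the fatty acid synthase, had 4298 in WT, 20667 in the saline-injected mutant and 22150 in the leptin-injected mutant, a 5.15-fold difference between the last and WT. Acaca, which makes the malonyl-CoA that Fasn uses, had 2069, 9163 and 9290 and was 4.49-fold higher, although a further probe set stood at 0.07 on the log2 scale. Acly, which supplies cytosolic acetyl-CoA from citrate, was 3.11-fold higher. Acss2, which makes acetyl-CoA from acetate, was 3.20-fold and the elongase Elovl6 3.11-fold higher. The mutant arrays were close to each other for these enzymes and both lay above WT.

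The stearoyl-CoA desaturases introduce the double bond of oleate. Scd, the main liver form in the annotation, had 17586 in WT, 37519 in the saline-injected mutant and 38705 in the leptin-injected mutant, a 2.20-fold difference. Scd2 had 624.0, 1313 and 3233, and was 5.18-fold higher in the leptin-injected mutant. For Scd2 the leptin-injected array stood above both others, whereas for Scd the mutant arrays were alike. Srebf1, the gene of SREBP1c, stood 2.07-fold above WT, while a further probe set had a log2 ratio of 0.00. Thrsp, a lipogenic regulator, was 1.56-fold higher. By brightest probe sets, the lowest ratio in the list was -0.24 on the log2 scale. Elovl5, at -0.08, had a further probe set at -2.60, and Dgat2, at -0.15, a further one at -0.62.

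Genes of sugar use lay above WT as well. Of 21 genes of glycolysis, fructose use and the pentose phosphate pathway, 5 were at least 2-fold higher and 0 lower, 20 had a ratio above 0, and the median log2 ratio was 0.46. Over all measured genes 56.5% had a ratio above 0. Slc2a5, the fructose transporter, had 466.1 in WT, 1425 in the saline-injected mutant and 1442 in the leptin-injected mutant, and was 3.09-fold higher. Pgd, Taldo1 and Rpia, enzymes of the pentose phosphate pathway that yields NADPH for lipid synthesis, were 2.31-fold, 2.20-fold and 2.18-fold higher, the last with another probe set at 0.15. Pklr, the liver pyruvate kinase and a ChREBP target, was 2.17-fold higher and its other probe set had a log2 ratio of 2.14. The only member with a negative ratio was at -0.03.

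**Figure D2:**
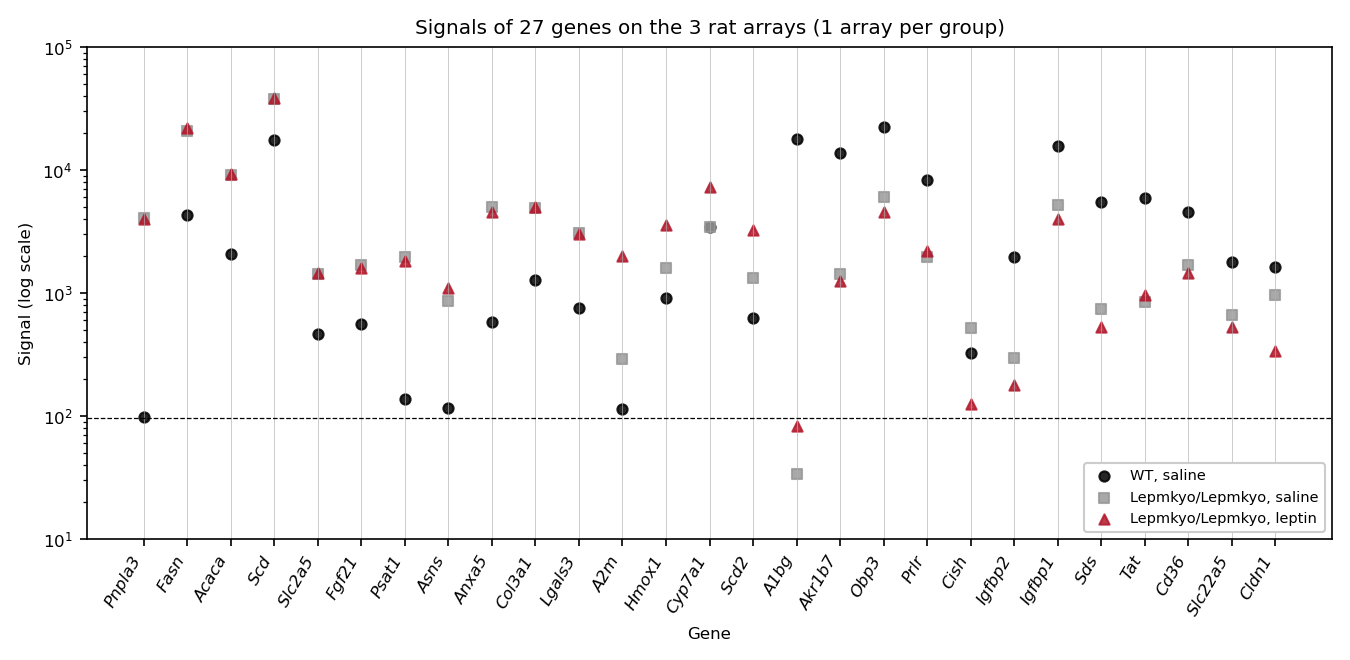
Signals (log scale) of 27 genes on the 3 rat arrays, with circles for WT saline, squares for the saline-injected mutant, triangles for the leptin-injected mutant and a dashed line at the floor of 96.5. For Fasn, Acaca, Scd and Slc2a5 the squares and triangles nearly coincide above WT, while for A2m, Cyp7a1, Scd2 and Cish the triangle stands apart from the square.

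Genes that fasting hormones raise lay mostly below WT. Of 24 genes of gluconeogenesis and the fasting response, 5 were at least 2-fold lower and 1 higher, with a median log2 ratio of -0.30. Sds, the serine dehydratase that turns serine into pyruvate, had 5527 in WT, 743.6 in the saline-injected mutant and 526.4 in the leptin-injected mutant, and was 10.5-fold lower. Tat, the tyrosine aminotransferase that glucocorticoids and glucagon induce, had 5897, 849.7 and 960.5 and was 6.14-fold lower. Igfbp1, a secreted IGF binding protein that insulin represses, had 15768, 5208 and 3998 and was 3.94-fold lower. The coactivator Ppargc1a and the insulin receptor substrate Irs2 were each 2.33-fold lower. The WT array was the highest of the 3 for all 5 genes, although Ppargc1a in the saline-injected mutant, at 257.1, was close to its WT signal of 300.1.

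The gluconeogenic enzyme Pck1 itself differed little, at 34058 in WT and 28480 in the leptin-injected mutant, 1.20-fold lower. The mitochondrial isoform Pck2, which is also induced by amino acid stress, was 3.44-fold higher, while a further probe set stood at 0.38 on the log2 scale. Among 37 genes of amino acid catabolism and the urea cycle, 4 were at least 2-fold lower and 0 higher, with a median of -0.10. Besides Sds and Tat these were Oat, the ornithine aminotransferase (3.27-fold lower), and Hal, the histidine ammonia-lyase (3.11-fold lower). Sds and Tat stand in both lists. Bckdhb, a subunit of the branched-chain ketoacid dehydrogenase, had the highest ratio of the list, 1.82-fold above WT.

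Fatty acid oxidation genes did not share the direction of the synthesis genes. Of 34 oxidation genes and targets of PPARA, 3 were lower by 2-fold or more and 1 was higher, 25 had a ratio below 0 (43.5% over all genes), and the median was -0.28. Slc22a5, the carnitine transporter, had 1773 in WT, 661.1 in the saline-injected mutant and 529.9 in the leptin-injected mutant, and was 3.35-fold lower. The carnitine acetyltransferase Crat was 2.72-fold lower and the peroxisome protein Pex11a 2.01-fold lower, with another probe set of Pex11a at -2.07. The exception was Vnn1, the pantetheinase, at 2.58-fold higher with 719.7, 1839 and 1858. Ppara itself was under the floor on both arrays.

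Lipid droplet genes differed in both directions. Of 21 measured lipid droplet and PPARG target genes, 3 were 2-fold or more above WT and 1 below, with a median of 0.19. Fabp5, a fatty acid binding protein of skin and other tissues, had 928.7 in WT, 5336 in the saline-injected mutant and 5167 in the leptin-injected mutant, and was 5.56-fold higher. Fabp4, the adipocyte form, had 57.7, 784.8 and 503.9 and was at least 5.22-fold higher. Cidea, which promotes droplet growth, was 2.24-fold higher and its relative Cidec 1.61-fold. Cd36, which brings fatty acids into the cell, went the other way with 4551, 1676 and 1463, a 3.11-fold lower signal. Pparg was under the floor on both arrays, as were the adipocyte markers Adipoq, Plin1 and Lep. Of 8 adipocyte markers on the array 4 were under the floor on both arrays, and of the 4 measured 1 was above WT by 2-fold and 0 below, with a median of 0.22 that turned to -0.25 over 7 genes with a floor at the 25th percentile.

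Serine and asparagine synthesis gave some of the largest ratios. Of 17 genes of serine synthesis and the ATF4 response, the programme that amino acid shortage and other stresses switch on, 6 were 2-fold or more above WT and 0 below, with a median of 0.77. Psat1, an enzyme of serine synthesis, had 136.4 in WT, 1946 in the saline-injected mutant and 1835 in the leptin-injected mutant, and was 13.4-fold higher. Phgdh, which catalyses the entry step of that pathway, had 5.8, 240.8 and 481.9 and was at least 4.99-fold higher. Psph, which completes it, was 2.29-fold higher. The asparagine synthetase Asns had 117.1, 857.4 and 1093 and was 9.33-fold higher. Nupr1 (2.40-fold) and Trib3 (2.30-fold), stress-induced regulators, were also higher, whereas Sesn2 was 1.61-fold lower. The order on the arrays was WT lowest for each of Psat1, Phgdh, Psph and Asns.

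Growth hormone acts on liver through STAT5 and sets its male or female pattern of gene expression by the timing of its release. Of 29 measured genes of this list, 9 were at least 2-fold lower and 0 higher, with a median of -0.47. A1bg, a plasma glycoprotein whose gene is female-specific in rat liver, had 17910 in WT, 33.5 in the saline-injected mutant and 82.1 in the leptin-injected mutant. It was at least 186-fold lower, the largest ratio of the comparison, on its 1 probe set. Cux2, a transcription factor of female liver, had 786.8, 161.8 and 197.3 and was 3.99-fold lower. Prlr, the prolactin receptor, which is higher in females, had 8245, 1946 and 2186 and was 3.77-fold lower, with other probe sets at -2.51 to -1.79. Each of these 3 genes was high in WT and low on both mutant arrays.

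The sex-specific cytochromes P450 of this list differed less, whereas Cyp3a9, a female-predominant form in the xenobiotic list, was 5.49-fold lower. Cyp2c12, the female-specific form, had 36492 in WT and 28946 in the leptin-injected mutant, 1.26-fold lower. Cyp2c11, the main male-specific form, had 29009 and 28878, 1.00-fold apart. The male-predominant Cyp2c13, Cyp3a2 and Cyp2a2 were 1.40-fold, 1.39-fold and 1.28-fold higher. Signals of forms known for opposite sexes were thus high together on the same arrays. Members of this family are alike in sequence and could share signal. Beside the list stand the Xist signals given above, 1.88-fold to 2.32-fold lower in the leptin-injected mutant, and their part in the result was not tested.

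Other members of the growth hormone list were lower too. Akr1b7, an aldose reductase-like enzyme, had 13652 in WT, 1423 in the saline-injected mutant and 1244 in the leptin-injected mutant, and was lower at a log2 ratio of -3.46. Obp3, a urinary lipocalin of a multigene family, was 4.87-fold lower, with a further probe set at -2.16. Onecut1, a transcription factor that growth hormone induces, was 3.39-fold lower and Hao2, a hydroxyacid oxidase, 2.05-fold lower. Socs2, a feedback inhibitor of growth hormone signalling, had 226.9, 50.3 and 39.3 and was at least 2.35-fold lower. Cish, another such inhibitor and STAT5 target, had 323.0, 522.0 and 125.6 and was 2.57-fold lower, with its other probe set at -1.36. For Cish the saline-injected mutant was the highest of the 3 arrays and the leptin-injected mutant the lowest. Igf1 and the receptor Ghr, at 1.12-fold and 1.08-fold lower, differed little on their brightest probe sets. The highest member was the repressor Bcl6, 1.75-fold above WT.

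Among 26 genes of leptin, insulin and IGF signalling, 3 were at least 2-fold lower and 1 higher, with a median of -0.04 that turned sign when arrays were centred on their median or the floor was raised. Igfbp2, an IGF binding protein known to respond to leptin, had 1953 in WT, 297.3 in the saline-injected mutant and 178.0 in the leptin-injected mutant, a log2 ratio of -3.46. The others that were lower were Igfbp1 and Irs2. Fgf21, a hormone of fasting and of amino acid stress, had 555.2, 1695 and 1598 and was 2.88-fold higher. Lepr, the leptin receptor, stood 1.20-fold above WT, while its further probe sets had log2 ratios of -0.62 to -0.27. Socs3, the STAT3 target that limits leptin signalling, had 123.1, 80.8 and 94.4, close to the floor on all 3 arrays. Lep gave 4.0, 6.0 and 3.1, so the arrays hold no check of the leptin genotype in liver.

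A2m, alpha-2-macroglobulin, a protease inhibitor of rat plasma that IL-6 type cytokines induce through STAT3, had 114.5 in WT, 291.8 in the saline-injected mutant and 1981 in the leptin-injected mutant. It was 17.3-fold higher, and the leptin-injected array stood apart from both saline arrays. Of 24 acute phase and plasma proteins, 4 were 2-fold or more above WT and 0 below, with a median of 0.10. The other 3 were Il1rn, the interleukin-1 receptor antagonist (at least 2.87-fold), the endotoxin receptor Cd14 (2.04-fold) and the siderophore-binding Lcn2 (at least 2.01-fold). Crp, by contrast, was 1.44-fold lower, and it had the lowest ratio of the list. Mug1, a murinoglobulin of the same inhibitor family as A2m, had 3313, 638.4 and 462.1 and was 7.17-fold lower.

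Bile acid genes lay mostly below WT, and Cyp7a1 was the only member 2-fold above it. Of 20 genes, 3 were at least 2-fold lower (1.65% over all measured genes) and 1 was higher (2.82%). A ratio below 0 was found for 17 (43.5% over all measured genes), and the median was -0.34. Cyp7a1, the rate-limiting enzyme of bile acid synthesis, had 3411 in WT, 3419 in the saline-injected mutant and 7318 in the leptin-injected mutant, and was 2.15-fold higher. The saline arrays were alike and the leptin-injected array was the higher one. Cyp8b1, which directs synthesis toward cholic acid, had 14694, 6148 and 5878 and was 2.50-fold lower. The sterol exporter Abcg5 was at least 3.65-fold lower, and Akr1c14, a hydroxysteroid dehydrogenase, 2.42-fold lower with other probe sets at -1.83 to -1.07.

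Xenobiotic metabolism had 3 of 26 genes at least 2-fold lower and 1 higher, with a median of -0.26. Cyp3a9, a female-predominant P450 of rat liver, had 17830 in WT, 4308 in the saline-injected mutant and 3246 in the leptin-injected mutant, and was 5.49-fold lower. The drug efflux pump Abcb1a and the caffeine-metabolising Cyp1a2 were each 2.38-fold lower. Gstp1, a glutathione transferase, was 3.11-fold higher. In the list of NRF2 targets and metallothioneins, 3 of 18 were 2-fold or more above WT and 2 below, with a median of 0.02 that turned sign in 2 other settings. Hmox1, the inducible heme oxygenase, had 902.1, 1607 and 3564 and was 3.95-fold higher, with the leptin-injected array above both others. Gpx2 was 2.84-fold and the aldehyde reductase Akr7a3 2.24-fold higher, whereas the glutathione reductase Gsr and the metallothionein Mt2A were 2.18-fold and 2.08-fold lower. Hmox1 was also the only 2-fold member of 17 iron and heme genes, whose median was 0.22.

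Cholesterol synthesis showed no common direction: 1 of 21 genes was 2-fold or more above WT and 0 below, with a median of 0.20. Lss, the lanosterol synthase, was 2.40-fold higher, with another probe set at 0.39. Stard4, a sterol carrier, was 1.94-fold lower and Tm7sf2, a sterol reductase, 1.85-fold lower, against 1.75-fold higher for the squalene epoxidase Sqle. Apolipoprotein and lipoprotein genes had 2 of 22 2-fold or more above WT and 0 below, with a median of -0.05 that turned sign in 1 other setting. Angptl8, an insulin-induced regulator of lipoprotein lipase, had 2307, 4673 and 6672 and was 2.89-fold higher, and Angptl6 was 2.48-fold higher. Apoa5 was 1.53-fold lower.

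Matrix genes lay mostly above WT. Of 24 stellate cell and matrix markers, 21 had a ratio above 0 (56.5% over all measured genes). At 2-fold or more, 9 were above WT and 0 below, with a median of 0.70. Timp1, an inhibitor of matrix metalloproteinases, had 84.6 in WT, 565.4 in the saline-injected mutant and 638.7 in the leptin-injected mutant, and was at least 6.62-fold higher. Col3a1, a fibrillar collagen, had 1266, 4914 and 5002 and was 3.95-fold higher. The smooth muscle protein Tagln was at least 4.71-fold and the proteoglycan Dcn 3.64-fold higher. Col1a2 was 2.78-fold higher with another probe set at 1.42. Other members differed little, with Col1a1 at a log2 ratio of 0.21 and Acta2 at 0.27. The 3 with a ratio below 0 were Des (-0.15), Col6a1 (-0.09) and Col4a2 (-0.02). Des was near the floor, with 106.9 in WT, 109.5 in the saline-injected mutant and 90.1 in the leptin-injected mutant. In a whole tissue sample, more cells of a type and more RNA per cell cannot be told apart.

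Annexins and S100 proteins bind calcium and, in the case of annexins, membrane lipids. Of 14 measured, 6 were at least 2-fold higher and 0 were lower, with a median of 0.80. All 14 had a ratio above 0 (56.5% over all measured genes). Anxa5 had 584.5 in WT, 5047 in the saline-injected mutant and 4524 in the leptin-injected mutant, and was 7.74-fold higher. Anxa8 had 62.8, 993.1 and 806.6 and was at least 8.36-fold higher. S100a4 was at least 4.02-fold and Anxa2 3.04-fold higher. The WT array was the lowest of the 3 for each of these 4 genes.

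Markers of other liver cells were read in the same way. Of 19 Kupffer cell and macrophage markers, 3 were 2-fold or more above WT and 0 below, with a median of 0.33. Lgals3, galectin-3, had 751.7, 3049 and 3039 and was 4.04-fold higher, and Gpnmb was 2.90-fold higher. Among their defining markers Cd68 was 1.49-fold and Cd163 1.32-fold higher, and Adgre1, with 340.3, 323.1 and 304.0, was 1.12-fold lower. Endothelial markers had 2 of 13 2-fold or more above WT and 0 below, with a median of 0.53, among them Vwf (3.08-fold) and Stab2 (2.10-fold). Eng, the only 1 of the 13 with a ratio below 0, had 703.3, 822.2 and 603.6, a log2 ratio of -0.22. The summed signal of 26 stellate cell and matrix markers was 1.41 times that of WT, of 21 macrophage markers 1.39 times, and of 13 endothelial markers 1.48 times. That of 15 hepatocyte markers was 0.977 times, with 1 of 15 at least 2-fold lower (Tat), 0 higher and a median of -0.01 that turned sign when arrays were centred on their median. Their part in the results for other genes was not tested.

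Markers of few other cells could be read. Of 8 bile duct markers, 4 were under the floor on both arrays, among them Krt7. Of the 4 measured, 2 were at least 2-fold higher, with a median of 0.87. These were Dmbt1, a mucin-like protein, at 4.64-fold with 123.5, 486.2 and 573.2, and Spp1 at least 2.03-fold. Of 9 neutrophil markers 6 were under the floor, and of the 3 measured 0 were 2-fold apart, with S100a9 1.83-fold higher and a median of 0.83. Of 16 lymphocyte markers 10 were under the floor, Cd3e and Cd4 among them, and 0 of the 6 measured were 2-fold apart, with a median of -0.11. Hbb, the beta globin of red blood cells, had 8301, 18750 and 19718 and was 2.38-fold higher, 1 of 3 measured red cell markers at 2-fold, and the median was 0.89. Slc4a1, the anion exchanger of red cells, went the other way with 156.6, 119.7 and 98.6, a log2 ratio of -0.67, and a further probe set at -0.17.

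Cpa1, a pancreatic carboxypeptidase, had 2948 in WT, 299.2 in the saline-injected mutant and 206.6 in the leptin-injected mutant, and was 14.3-fold lower. Of 8 pancreatic markers on the array 6, among them Prss1, Pnlip and Ctrb1, were under the floor on both arrays. The remaining one, Cela1, was 1.63-fold higher.

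**Figure D3:**
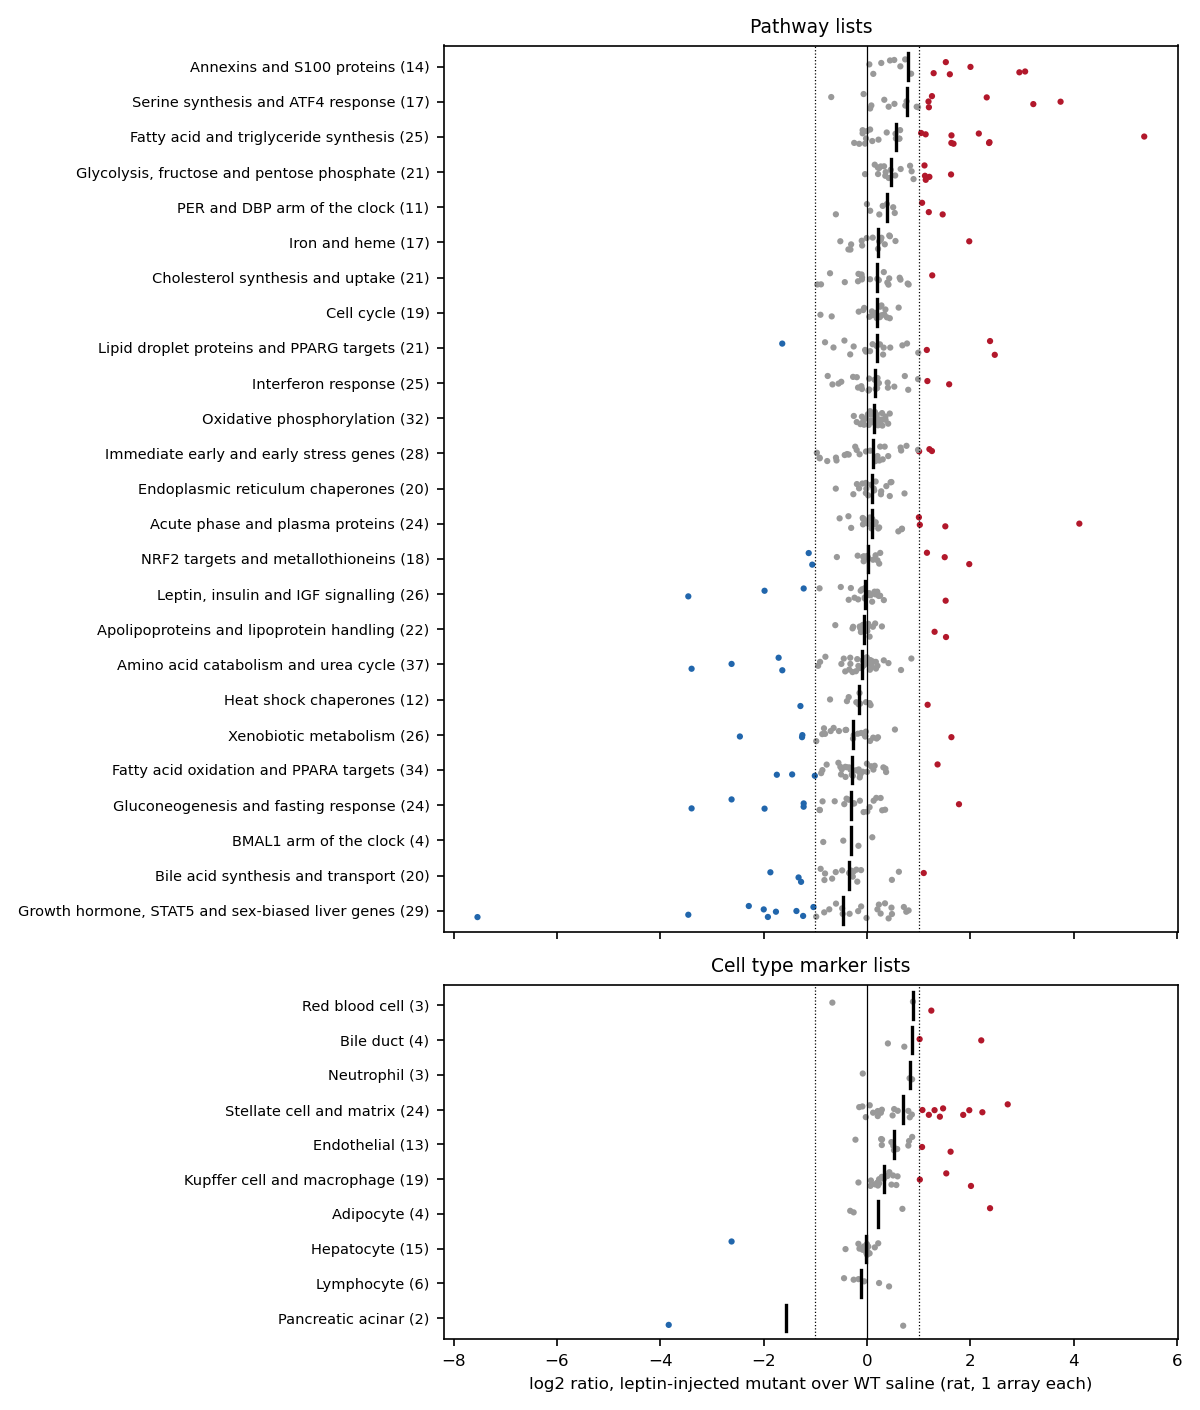
log2 ratio of the leptin-injected mutant over WT saline (x axis) for each measured member of the 25 pathway lists and 10 marker lists, with the number of measured members in parentheses, a black bar at the median and coloured points at 2-fold or more. The annexin, serine synthesis, fatty acid synthesis and matrix lists lie to the right, at medians of 0.80, 0.77, 0.56 and 0.70. So do the red blood cell, bile duct and neutrophil lists at 0.89, 0.87 and 0.83, with 3, 4 and 3 measured members. The growth hormone list lies lowest of the pathway lists at -0.47.

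Clock genes of the PER and DBP arm, which peak together, had 3 of 11 2-fold or more above WT and 0 below, with a median of 0.39. Dbp was 2.77-fold, Per2 2.30-fold and Per3 2.10-fold higher, and Usp2 was 1.51-fold lower. The opposite BMAL1 arm had 0 of 4 at 2-fold and a median of -0.31, with Npas2 1.79-fold lower and Cry1 1.08-fold higher. Bmal1, which the annotation lists under another symbol than the list did, had 346.5 in WT, 195.4 in the saline-injected mutant and 113.6 in the leptin-injected mutant, and was 3.05-fold lower. It was added after its value had been seen. With older symbols updated, 5 genes of the BMAL1 arm were measured, 1 was at least 2-fold lower and 0 higher, and the median was -0.46. The hour of collection is not stated, and its part in the result was not tested.

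Of 28 immediate early and early stress genes, 3 were 2-fold or more above WT and 0 below, with a median of 0.11 that turned sign in 2 other settings. Klf6 was 2.39-fold, Jund 2.31-fold and Gadd45a 2.02-fold higher, whereas Sik1 was 1.96-fold lower. With older symbols of this list updated, 30 genes were measured, 4 were 2-fold or more above WT and 0 below. The median was then 0.185, and Ccn2, 4.53-fold higher, was among the genes added. The interferon response had 2 of 25 2-fold or more above WT and 0 below, with a median of 0.15. Ubd, a ubiquitin-like protein, had 4930, 15649 and 14874 and was 3.02-fold higher, and Ifit3 was 2.25-fold higher. Heat shock chaperones had 1 of 12 higher (Hspa4, 2.26-fold) and 1 lower (Hspa1a, 2.44-fold), with a median of -0.15. Endoplasmic reticulum chaperones (20 genes, median 0.11), oxidative phosphorylation (32 genes, median 0.14) and cell cycle genes (19 of 32 on the array measured, median 0.19) had 0 members at 2-fold in either direction. Among these Sdf2l1 was 1.66-fold, Uqcrc1 1.36-fold and Mcm4 1.53-fold higher, and Ccnd1 1.86-fold lower. The cell cycle median turned to -0.29 over 4 genes with the floor at the 75th percentile.

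Several of the 15 largest ratios in each direction lay outside these lists. Tsx, a testis-specific X-linked gene by name, had 70.6 in WT, 763.0 in the saline-injected mutant and 1068 in the leptin-injected mutant, and was at least 11.1-fold higher. Wfdc21, a secreted protein of the whey acidic protein family, had 3063, 13400 and 17859 and was 5.83-fold higher. Ltb, lymphotoxin beta, was at least 5.68-fold, the tubulin Tubb6 at least 5.58-fold and Esm1, a proteoglycan of endothelial cells, at least 5.50-fold higher. Spink1, a trypsin inhibitor, was 5.32-fold higher with other probe sets at 2.41 to 2.85, and the potassium channel Kcnj15 was 5.25-fold higher. Of these, Wfdc21 had the brightest WT signal and 4 had a WT signal under the floor.

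Among the largest lower ratios, the transcriptional co-regulator Trim24 had 2210, 397.1 and 392.1 and was 5.64-fold lower. The liver-intestine cadherin Cdh17 was 5.59-fold and Mmd2 at least 5.31-fold lower. Cldn1, a tight junction protein, had 1640, 966.2 and 336.6 and was 4.87-fold lower, with other probe sets at -1.44 to -1.22. Nrep was 4.59-fold and Fabp7, the brain fatty acid binding protein, 4.49-fold lower. For Cldn1 the saline-injected mutant lay between the others, and for Trim24 the mutant arrays were alike. The saline-injected mutant and the leptin-injected mutant are both set against the same WT array, so their likeness is no independent check of that array.

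The same contrast exists in mice, between leptin-injected Lepob/Lepob mice and saline-injected WT mice, and it shares no array with the rats. Of 11856 measured mouse genes 467 were higher by 2-fold or more (3.94%) and 411 lower (3.47%), 7.41% in all. Over 8274 identical symbols measured in both species, 45 genes were at least 2-fold higher in both. They are 19.7% of 229 such rat genes and 14.6% of 308 such mouse genes, while 3.72% of all common symbols were higher in mice. At least 2-fold lower in both were 21 genes, 17.5% of 120 in rats and 8.27% of 254 in mice, beside 3.07% of the common symbols lower in mice. Of the same 120 rat genes, 17 were at least 2-fold higher in mice, beside 3.72% of the common symbols. Of the 229 higher rat genes, 5 were at least 2-fold lower in mice, beside 3.07%. Igfbp2 (log2 ratio of -3.46 in rats, 9.04-fold lower in mice), Onecut1 (3.39-fold and 6.83-fold lower), Anxa5 (7.74-fold and 4.07-fold higher) and Fgf21 (2.88-fold and 6.99-fold higher) were among the shared genes. Fold sizes were not tested between species.

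Several of the larger rat differences were under 2-fold in the mouse arrays. Pnpla3 had a mouse log2 ratio of -0.27, Asns of 0.18 and Fasn of -0.87. For Psat1 a mouse signal was under the floor, and its log2 ratio of 0.22 is a bound. The fatty acid synthesis list had a median of 0.56 in rats and 0.02 in mice, and that of fatty acid oxidation -0.28 and 0.70. Cholesterol synthesis stood at 0.20 and -0.99. Opposite directions at 2-fold were found for 22 genes, 17 of them lower in rats. Cd36 was 3.11-fold lower in rats and 13.2-fold higher in mice, and Slc22a5 was 3.35-fold lower and 2.87-fold higher. The difference between species was not tested.

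**Figure D4:**
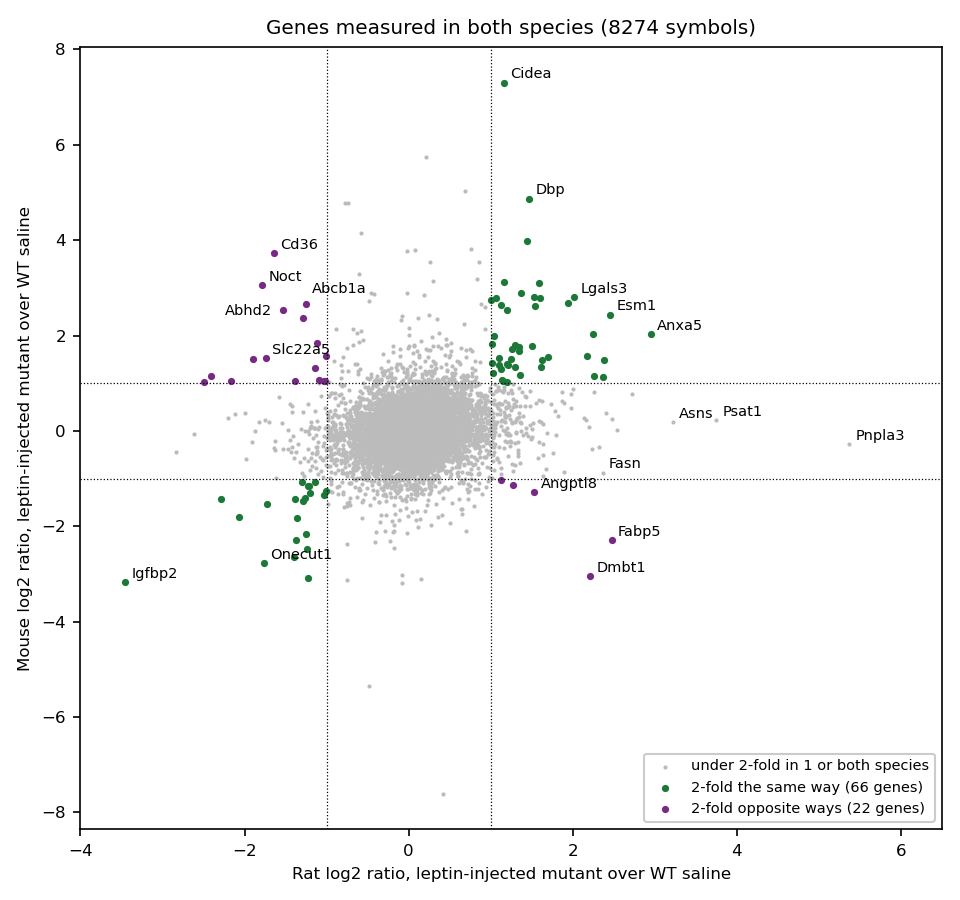
log2 ratio of the leptin-injected mutant over WT saline in rats (x axis) and mice (y axis) for 8274 symbols measured in both, 1 array per group, with dotted lines at 2-fold. Green points are 66 genes at least 2-fold the same way and purple points 22 genes at least 2-fold opposite ways, with Cd36, Fabp5 and Dmbt1 far from the diagonal and Igfbp2 and Anxa5 near it.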

How the data were processed

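Liver RNA was extracted with Trizol and hybridised to short-oligonucleotide arrays, per the labels' protocols. The authors' deposited files hold linear signal intensities. MAS5 is the tool named for them, without a version, per the submitters' processing notes. Their trimmed mean, with 2% left out at each end, was 496.3 on the WT rat array and 496.9 on both mutant rat arrays. The rat medians were 93.6 to 99.3. Low signals are the least precise, and detection calls were not used here.

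Of 31042 rat probe sets, 20826 had 1 gene symbol in the platform annotation, 436 had several and 9780 none. Only the first were used, for 14217 genes. Mouse symbols were updated through gene identifiers to GRCm38.p6 for 34741 probe sets, and species were joined by identical symbol.

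The floor, the choice of probe set and the 2-fold threshold are described with the results, and the floor and the choice of probe set used the arrays compared only. Ratios of further probe sets use the same floor, so some of them are bounds too. No test was possible with 1 array per group. Members, lists and alternatives were chosen with earlier results of these data known. Genes described were taken from the 15 largest ratios in each direction that were also 2-fold after quantile normalization with no probe set opposed by 1.5-fold, the largest ratios of each of 25 pathway and 10 marker lists (4 at most) and any member needed for the opposite direction, genes fixed by name (Lep, Lepr, Igfbp1, Igfbp2, Socs3, Srebf1, Pck1, Fgf21, Pparg, Cd36, Cyp7a1, Ppara and desaturases), and 5 genes opposite in mice. Other genes are named after their values were seen. The calculation was tested on simulated data. Alternatives changed normalization, floor, probe sets, treatment of low values and fold. Python 3.11.15 with numpy 2.4.6 and pandas 2.3.3 was used.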

Additional observations from a re-analysis of the deposited data

Results flagged for a closer look

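For 5 genes the rat and mouse arrays of the leptin-injected mutants lay at least 2-fold from their WT arrays in opposite directions, and the difference was not tested. They are the 5 of 22 such genes whose smaller ratio of the pair was largest, and others had a larger ratio in a single species, such as Trim24 at -2.49 in rats. Fabp5 had a log2 ratio of 2.48 in rats and -2.29 in mice. Dmbt1 was at 2.21 in rats and -3.04 in mice, the latter a bound. Noct, a clock-controlled RNA-processing enzyme, was at -1.79 in rats, with 1242 in WT, 489.6 in the saline-injected mutant and 360.1 in the leptin-injected mutant, and at 3.05 in mice. Cd36 was at -1.64 in rats and 3.73 in mice. Abhd2, a serine hydrolase, was at -1.53 in rats, with 2868, 655.3 and 995.7, and at 2.53 in mice. For all 5 genes the saline-injected mutant rat lay on the same side of WT as the leptin-injected one, and both share that WT array.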

How the results depend on the processing

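The counts of genes changed with the treatment of dim signals and with the fold. With the floor at the 25th percentile 635 rat genes were higher and 532 lower, 86 and 66 of them also in mice. With the floor at the 75th percentile there were 113 and 75, and 15 and 11 also in mice. With log2(signal + floor) 183 were higher and 100 lower. At 1.5-fold the counts were 1008 and 672, with 201 and 118 shared with mice, and at 3-fold 61 and 38, with 7 and 3 shared. Here the settings themselves change which genes are tested, raise or lower the threshold, or shrink ratios of dim genes. Quantile normalization, centring on the median, the median over probe sets, dropping multi-transcript probe sets, and a floor over 3 arrays kept the rat counts within 1.5 times. The median log2 ratio of all genes shifted by -0.04 to 0.08. Of 162 genes picked by the naming rule, 0 turned sign among those at 2-fold, in the 8 settings of normalization, floor and probe sets that gave them a value. Of the 96 at 2-fold, 17 were under it with the floor at the 75th percentile, 10 with log2(signal + floor), 4 with the median over probe sets, and 1 each with quantile normalization and centring. Without multi-transcript probe sets 10 of the 162 had no value, among them A1bg, Sds, Cd36, Fabp4 and Mug1. With the floor at the 75th percentile 34 had none. The adipocyte median turned to -0.26 without multi-transcript probe sets. No paired analysis was possible because each group is 1 array, and leaving out replicates was not possible either.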

Other observations

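Some genes not counted in the lists, named after their values were seen, stood well away from WT. The sulfotransferases Sult2a2 and Sult2a6, which act on steroids and bile acids, had 18505 and 34015 in WT, 6429 and 14623 in the saline-injected mutant, and 4986 and 12669 in the leptin-injected mutant, 3.71-fold and 2.69-fold lower. They belong to a multigene family whose members can share signal. Lifr, the leukaemia inhibitory factor receptor, had 404.3, 5.8 and 1.4 and was at least 4.19-fold lower, its other probe set at -1.61 on the log2 scale and the mouse gene at -1.81. Slc16a10, an aromatic amino acid transporter, was 3.31-fold lower in rats and at -1.52 in mice. Slc20a1, a phosphate transporter, was 4.75-fold higher in rats and at 2.03 in mice, and Inhbe, an inhibin subunit secreted by liver, was 2.85-fold higher and at 1.78. Ccn2, the connective tissue growth factor, had 469.1, 2219 and 2123 and was 4.53-fold higher, with the mouse gene at 1.56. The immediate early list held Ccn2 under an older symbol, so it was missed in the count of that list. The chemokine Cxcl1 was 4.59-fold higher with 367.7, 2078 and 1686, and at 0.09 in mice.

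For a few of these genes the leptin-injected array stood apart from both saline arrays. Tnfrsf21, a death receptor, had 85.7 in WT, 100.8 in the saline-injected mutant and 462.4 in the leptin-injected mutant, at least 4.79-fold above WT, its other probe set at 2.15 on the log2 scale. The neurotrophin Ntf3 had 602.1, 611.1 and 1318, and the inhibitory receptor Sirpa had 697.3, 926.9 and 1780, the latter with another probe set at -0.71. Each of these values comes from 1 array.

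Probe sets without a single gene symbol were not part of the counts. Of 3731 that were measured, 91 lay 2-fold or more above WT (2.44%) and 119 as far below it (3.19%). The lowest ratio among them was at least 13.4-fold below WT, with signals of 1288 in WT, 17.2 in the saline-injected mutant and 19.5 in the leptin-injected mutant.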
